A study of Mus musculus with 18 samples.

Results

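Islet RNA of 4-week-old female NOD mice was compared with islet RNA of age-matched female NOD.B10 mice on 6 two-colour arrays, out of 18 in the series. They are all the arrays whose labels give islets of 4-week-old NOD mice, and the other 12 arrays, 6 at 10 days and 6 at 12 weeks, served only to show where 4 weeks differed. NOD is an inbred strain that develops autoimmune diabetes without treatment. NOD.B10 is a congenic strain on the NOD background that carries the major histocompatibility complex (the H2 region of chromosome 17) of another strain and stays free of diabetes. Each red (Cy5) channel held islet RNA of 1 individual NOD mouse, and the green (Cy3) channel held a pool from 6 NOD.B10 mice. Every mouse was female, no mouse was treated, and islets were freed with collagenase. The dyes were not swapped, so a dye effect on a probe and a difference between the strains cannot be told apart. Each age had a pool of its own, so a difference between pools and a difference between NOD mice of 2 ages cannot be told apart. Since a pool is a single control sample, how much NOD.B10 mice differ among themselves does not enter the tests.

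Every value below is a log2 ratio of NOD over NOD.B10 unless another scale is named, so that 1 means a doubled level in NOD, and errors are SD over the 6 NOD mice. A gene is called higher or lower where limma's moderated test of the mean against 0 gave an adjusted p (Benjamini-Hochberg over 16969 genes) under 0.05. Of these genes 53% were called, 24.8% as higher and 28.2% as lower, and the median over all of them was −0.01. A change of at least 2-fold was called for 2.98%, namely 346 higher genes (2.04%) and 159 lower genes (0.937%). Counts for a gene group are read against these shares. Centring each array on its median in place of loess moved the median of all genes to −0.18, so that 20.7% of the calls were higher in place of 46.7%, and group counts whose balance turned with it are given in both forms. The olfactory receptors, a family taken as a negative control, had 61.5% of measured members higher. The share of probes well above background ran from 50.7% to 58.2% for NOD and from 52.8% to 59.8% for the pool. The arrays correlated with each other at Pearson's r between 0.33 and 0.85 across genes, lowest for replicates 4 and 5. Precision is limited by there being 6 arrays.

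Islets are clusters of endocrine cells embedded in exocrine pancreas. Beta cells release insulin through calcium-triggered fusion of granules, while the acinar cells around islets make digestive enzymes at one of the highest rates of protein synthesis in the body. Collagenase-freed islets carry acinar tissue to a varying degree. The marker genes at 4 weeks went opposite ways. All 27 measured acinar markers were higher, with a median of 1.45 and array medians from 1.04 (replicate 5) to 1.74 (replicate 3). None of 22 beta cell markers was higher and 20 were lower, with a median of −0.76 and array medians from −1.05 (replicate 3) to −0.44 (replicate 5). Ptf1a, the transcription factor that defines acinar cells, ranged from 0.93 to 2.32 with a median of 1.74, and Ins1, 1 of the 2 mouse insulin genes, from −2.31 to −1.11 with a median of −1.44. In bulk RNA, fewer cells of a type and less RNA per cell cannot be told apart. The part of these marker differences in the groups described here was not tested.

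The serine, glycine and one-carbon genes of amino acid metabolism had the highest group median described here after the acinar markers. Serine is made from a glycolytic intermediate by Phgdh, Psat1 and Psph, feeds glycine and the folate-bound one-carbon pool, and with homocysteine gives cysteine. Of 25 measured genes of serine, glycine and one-carbon metabolism 17 were higher and 3 lower, and 11 were higher by at least 2-fold. Median centring gave 15 higher and 8 lower. Their median of 0.87 stood beside −0.01 for all genes, and the array medians ran from 0.64 to 1.44, highest in replicate 3, where the acinar markers were also highest. Psat1 ranged from 1.63 to 2.52 with a median of 1.95 over the 6 NOD mice, a mean of 1.96 ± 0.33 (adjusted p = 2.3e-05, limma, n = 6). Every NOD mouse was more than 2-fold above the pool for this gene. Phgdh, the first enzyme, ranged from 0.91 to 1.70 with a median of 1.22, and Psph, the last, from 0.64 to 1.18 with a median of 0.75. For all 3 enzymes replicate 3 was highest.

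The cysteine-forming enzyme Cth reached a mean of 1.65 ± 0.46, and Cbs, the step before it, one of 0.72 (0.36 and not called with median centring). Sardh, which breaks down sarcosine in mitochondria, stood at 1.47 ± 0.41. Gatm and Gamt, the enzymes of creatine synthesis, stood at 1.61 ± 0.53 and 1.15. The mitochondrial folate enzymes Mthfd2 (1.33), Aldh1l2 (1.34) and Shmt2 (0.81) were higher. The cytosolic enzyme Mthfd1 (−0.20 ± 0.24, adjusted p = 0.091) and the glycine cleavage enzyme Gldc (−0.16 ± 0.14, adjusted p = 0.058) were not called. Mat2a, the S-adenosylmethionine synthase of most tissues, was lower (−0.39), and Mat1a, the form best known from liver, was higher (1.00). Mthfd1l (−0.57), another mitochondrial folate enzyme, was lower too.

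Among the amino acid lists glutamine and proline genes followed, with 12 of 19 higher, 2 lower and a median of 0.52. Median centring gave 7 higher and 5 lower. Gls2, the liver-type glutaminase, stood at 1.85 ± 0.33 with every mouse at 1.61 or above. Oat, which links ornithine and glutamate, was 1.05 ± 0.46, Gpt2, the mitochondrial alanine aminotransferase, 0.99 ± 0.29, and Asns, asparagine synthetase, 0.98 ± 0.23. Of 29 amino acid transporters 17 were higher and 9 lower, and with median centring 11 and 10. The cationic carrier Slc7a3 (1.72 ± 0.43), the glutamine carrier Slc1a5 (1.44 ± 0.39) and the glycine carrier Slc6a9 (1.38 ± 0.36) were higher in all 6 mice, and the taurine carrier Slc6a6 was lower in all 6 (−1.18 ± 0.30). Polyamine genes had 8 of 13 higher and 3 lower (5 and 5 with median centring), among them Azin1, an inhibitor of antizyme (0.74 ± 0.25). Odc1, the first enzyme, was 0.48 ± 0.30, and 0.23 and not called with median centring.

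**Figure D1:**
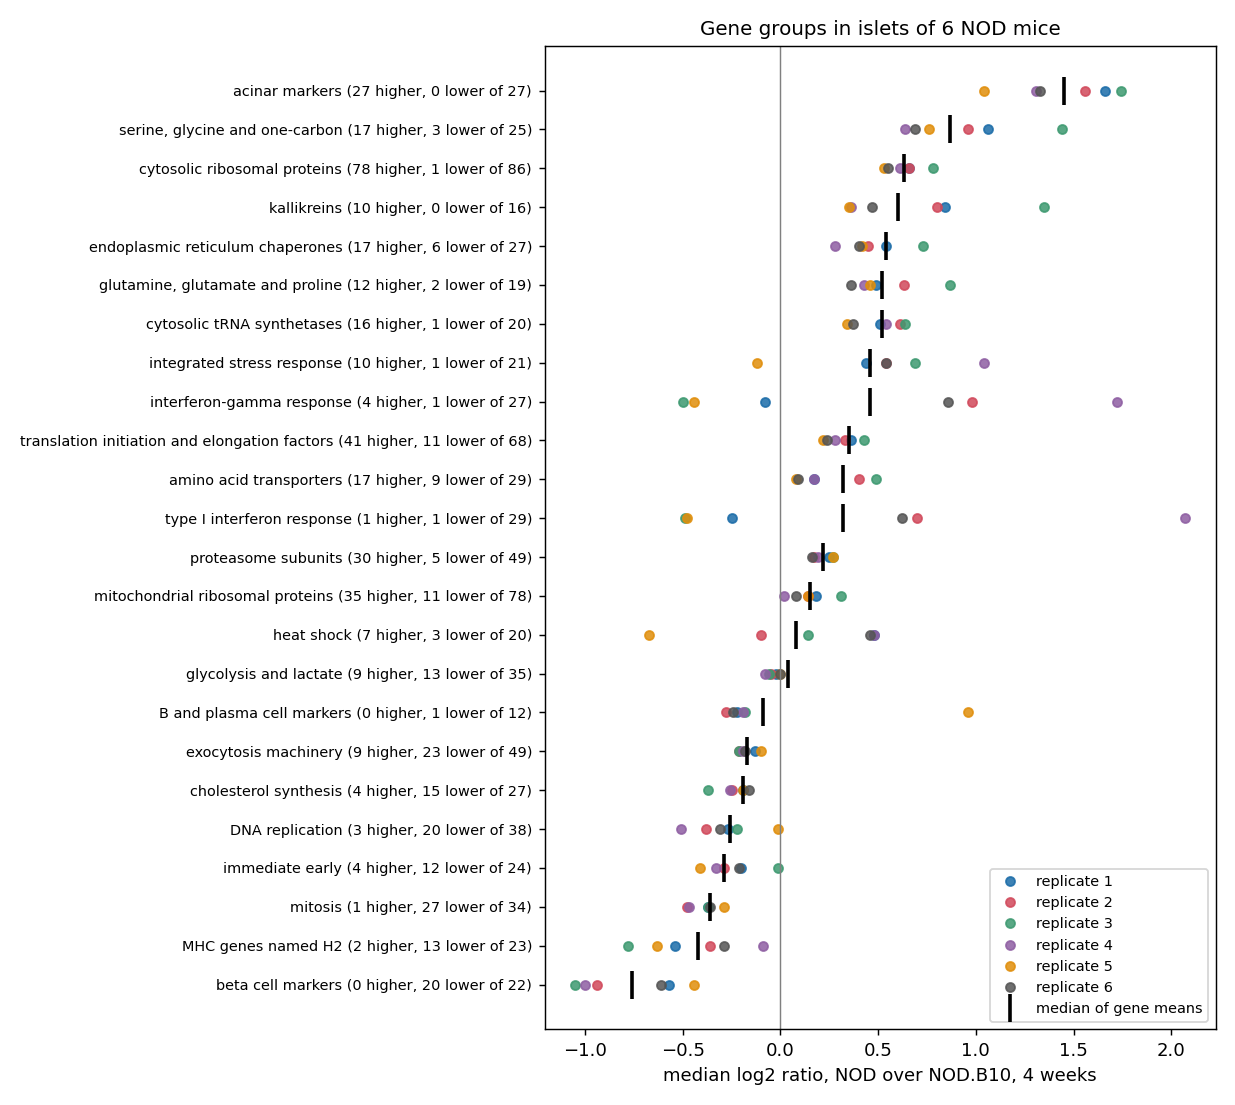
Median log2 ratio of NOD over NOD.B10 (horizontal axis) of each gene group (vertical axis) on each of the 6 arrays (points) and over the gene means (bar mark), with the counts of genes called higher and lower of those measured. Acinar marker medians sit between 1.04 and 1.74 and beta cell marker medians between −1.05 and −0.44. The type I interferon group spreads from −0.49 to 2.07, and with arrays centred on their medians the proteasome group turned to −0.10.

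The transcription factor ATF4 activates amino acid and stress genes when the initiation factor eIF2 is phosphorylated, a route named the integrated stress response. Of its 21 measured genes 10 were higher and 1 lower, with a median of 0.46, and median centring gave 3 higher and 2 lower (median 0.18). Stc2, a secreted glycoprotein of stressed cells, was 1.53 ± 0.40 and at least 0.93 in every mouse. Atf4 itself was 0.54 ± 0.33, and 0.18 and not called with median centring (adjusted p = 0.17, limma, n = 6). The array medians of the list ran from −0.12 in replicate 5 to 1.04 in replicate 4. Ddit3, the transcription factor CHOP, lay between 0.33 and 1.22 in 5 mice and at −2.02 in replicate 5 (0.20 ± 1.15, adjusted p = 0.68). Trib3, an ATF4 target and brake, spanned −1.83 (replicate 5) to 2.28 (replicate 4), and Chac1, which degrades glutathione, spanned −1.57 (replicate 5) to 1.81. These 3 genes were not called, and replicate 5 was lowest for each. Without that mouse their means were 0.64, 0.90 and 1.16 in the same order, and each was called (adjusted p = 0.0075, 0.031 and 0.00043, limma, n = 5). The mouse was picked because it was lowest, so these calls follow in part from that choice.

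The ATF4 composite site, a C/EBP-ATF element spelled TGATGNAAN, was searched on both strands in RefSeq promoters (GRCm38.p6, 250 bases before to 50 after the start). Promoters were counted by gene, here and below, so a gene with several counted once if any of them held a site. The ATF4 site occurred in 1215 of 27025 promoters (4.5%) and in 2.96% of those of the genes tested here. Of the 335 tested genes with the site 91 were higher and 79 lower, near the shares of all genes. The stress list names genes of the ATF4 route, so its share of sites is not independent of that choice. Among the amino acid, tRNA synthetase and stress genes 17 of 89 promoters held the site (19.1%). Of these 17, 13 belonged to genes called higher and 1 to a gene called lower (Vldlr, −0.44), and 5 held it on the forward strand. The promoters of Nupr1, Fgf21, Tars and Asns are shown because they hold it and their genes were higher, and the capitals mark the site. The stretches, given 5′ to 3′ on the gene's strand, are chr7:126625513-126625641 (minus), chr7:45615562-45615690 (minus), chr15:11399659-11399734 (minus) and chr6:7693210-7693292 (minus).
Nupr1: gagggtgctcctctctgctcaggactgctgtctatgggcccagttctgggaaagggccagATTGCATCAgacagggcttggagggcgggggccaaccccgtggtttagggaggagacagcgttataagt
Fgf21: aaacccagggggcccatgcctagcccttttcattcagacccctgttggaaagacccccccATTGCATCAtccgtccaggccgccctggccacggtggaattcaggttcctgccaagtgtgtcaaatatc
Tars: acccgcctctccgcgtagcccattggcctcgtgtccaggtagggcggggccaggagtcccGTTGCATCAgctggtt
Asns: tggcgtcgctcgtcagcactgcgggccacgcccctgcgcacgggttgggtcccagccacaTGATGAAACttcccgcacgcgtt

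Values of the genes behind these promoters differed in spread. Nupr1, a stress-induced chromatin protein abundant in pancreas, ranged from −0.17 (replicate 5) to 3.16 (replicate 4) with a median of 1.81, and its mean of 1.73 ± 1.08 was called (adjusted p = 0.0036, limma, n = 6). Fgf21, a secreted metabolic hormone, ranged from −0.34 (replicate 4) to 2.93 (replicate 3) with a median of 1.17 (adjusted p = 0.048, limma, n = 6), and its call was lost without any 1 of replicates 1, 2, 3 and 6, its mean being 0.72 without replicate 3. It was not called with median centring (0.75) or processed signals (1.2) either. Tars, the threonyl-tRNA synthetase, kept within 0.39 to 1.06. These genes and promoters were chosen after their values were seen. No promoter of the 20 measured serine pathway genes with an entry held the site, nor any of 62 of ribosomal protein genes.

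The translation machinery was higher as a group. Cytosolic ribosomal proteins were higher in 78 of 86 genes and lower in 1, with a median of 0.63 and array medians between 0.53 and 0.78. Rpl4 ranged from 0.96 to 1.45 with a median of 1.25 (1.22 ± 0.18, adjusted p = 2.4e-05, limma, n = 6), and Rpl5 stood at 1.15 ± 0.18 and Rps14 at 1.08 ± 0.16. All 6 mice were above the pool for each of these 3 genes. The lower gene was Rps4l (−0.87 ± 0.25), a relative of Rps4x (0.84), and the 7 that were not called included Rps27 (0.15) and Rps29 (−0.04). Ribosomal proteins have many near-identical pseudogenes, so single members are uncertain where a probe matches a copy.

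Translation factors were higher in 41 of 68 genes and lower in 11, and cytosolic tRNA synthetases in 16 of 20 with 1 lower. Where arrays were centred on their medians in place of loess, 10 translation factors were higher and 17 lower (median 0.01), the ribosomal proteins had 53 higher and 3 lower (median 0.36), and the synthetases 5 higher and 1 lower (median 0.17). The elongation factors Eef1b2 (1.14 ± 0.13) and Eef1a1 (0.87 ± 0.13) and the eIF2 subunit Eif2s2 (0.90 ± 0.25) were higher in all 6 mice. Eif4ebp1, the repressor of cap-dependent initiation and an ATF4 target, was higher too (1.59 ± 0.41). Rars (0.74 ± 0.15), Iars (0.72 ± 0.21) and Kars (0.70 ± 0.07) led the synthetases with Tars, and Sars (0.13) and Aars (0.11) were not called. Mitochondrial ribosomal proteins were higher in 35 of 78 genes and lower in 11 (median 0.15), a direction that turned with median centring (4 higher, 28 lower, median −0.19).

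Proteins for secretion enter the endoplasmic reticulum (ER), are folded by chaperones, and leave for the Golgi in vesicles. Of 27 ER chaperones and folding enzymes 17 were higher and 6 lower, with a median of 0.54, against 9 higher and 7 lower with median centring (median 0.23). Pdia2, the disulfide isomerase of exocrine pancreas, was 1.28 ± 0.23. Creld2 (1.13 ± 0.28), Fkbp11 (1.03 ± 0.30) and Ppib (1.01 ± 0.22) were also higher by 2-fold in the mean. Hspa5, the master chaperone BiP, ranged from 0.57 to 1.12 with a median of 0.86, and Xbp1, the transcription factor of the unfolded protein response, averaged 0.57 ± 0.23 (0.24 and not called with median centring). Ero1b, the oxidase of beta cells, went the other way (−0.68 ± 0.22), as did Calr (−0.17), whose call was lost without any 1 of replicates 1, 2, 4, 5 and 6 and with processed signals (−0.14).

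The ER stress element, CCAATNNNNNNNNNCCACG, was found in 37 of 27025 promoters on either strand (0.137%) and in 8 of 24 promoters of the ER chaperone list (33.3%). Of these 8 genes Hspa5, Creld2, Dnajc3 and Hsp90b1 (0.56) were higher, Calr and Ero1b lower, and Pdia6 (0.10) and Canx (−0.10) not called. Their median was 0.33, beside 0.55 for the genes of the list whose promoters lacked the element. With median centring Hsp90b1 was 0.36 and not called, and with processed signals 0.22 and not called. The first 3 are shown as the higher genes with the largest means, with the element in capitals, at chr2:34771965-34772089 (plus), chr15:88819460-88819598 (plus) and chr14:118937767-118937905 (plus) of GRCm38.p6.
Hspa5: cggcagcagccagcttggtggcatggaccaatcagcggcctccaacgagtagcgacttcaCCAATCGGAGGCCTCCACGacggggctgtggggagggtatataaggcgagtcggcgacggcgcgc
Creld2: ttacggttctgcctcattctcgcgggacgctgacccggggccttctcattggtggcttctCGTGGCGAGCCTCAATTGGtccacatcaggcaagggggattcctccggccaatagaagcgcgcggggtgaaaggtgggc
Dnajc3: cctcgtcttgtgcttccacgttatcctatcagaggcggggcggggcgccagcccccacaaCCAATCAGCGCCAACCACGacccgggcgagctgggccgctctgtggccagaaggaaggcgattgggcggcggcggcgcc

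ER-associated degradation, which returns misfolded proteins to the cytosol, had 12 of 22 genes higher and 2 lower (median 0.24), against 4 higher and 3 lower (median −0.07) with median centring. Derl3, a channel component, was 1.17 ± 0.38. Sel1l, the scaffold of the Hrd1 ligase, differed widely between mice, from 0.01 in replicate 4 to 2.44 in replicate 3 (1.52 ± 0.98). Translocation into the ER had 13 of 23 higher and 2 lower, against 1 higher and 4 lower with median centring. Srp54a (0.80 ± 0.09) and Srp68 (0.67 ± 0.20), parts of the signal recognition particle, and Sec62 (0.61 ± 0.18) were among them, the latter pair not called with median centring (0.32 and 0.26). N-glycosylation (10 higher, 11 lower of 32) and ER to Golgi transport (15 higher, 14 lower of 46) were not shifted one way, but median centring gave 1 higher and 16 lower for the first and 4 higher and 20 lower for the second. Within transport, the KDEL receptor Kdelr3 (1.35 ± 0.32) and the cargo receptor Tmed6 (1.30 ± 0.28) were higher, and Creb3l2, a transcription factor of secretory genes, was lower (−0.89 ± 0.23). Proteasome subunits were higher in 30 of 49 genes and lower in 5 (median 0.22), with 3 higher and 14 lower (median −0.10) under median centring.

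Secreted proteases of the tissue kallikrein family cleave kininogen and other substrates. Of 16 measured kallikreins 10 were higher and none lower, 7 of them by at least 2-fold, with array medians from 0.35 to 1.35. Klk1b26 ranged from 1.21 to 1.91 with a median of 1.52, and Klk1b21, Klk1b8 and Klk1b4 averaged 1.48, 1.41 and 1.31. The Klk1b genes are near-identical neighbours on chromosome 7, so probes may share their signal and the 10 are not independent. Serpins, the protease inhibitors, had 9 of 29 higher and 2 lower, among them the pancreas serpin Serpini2 (1.02 ± 0.35). Glutathione S-transferases had 11 of 17 higher and 1 lower, led by Gstt3 (1.32 ± 0.48).

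Acinar signalling genes were higher in 8 of 17 cases and lower in 2. Cckar, the cholecystokinin receptor that triggers enzyme release, was 1.34 ± 0.78, with replicate 4 at 0.06 and the other 5 mice between 0.72 and 2.12. Nr5a2 (1.08 ± 0.35) and Rbpjl (0.90 ± 0.49), transcription factors of the acinar programme, were higher in all 6 mice, while Bhlha15, another one, was not called (0.54 ± 0.74, adjusted p = 0.087) and was 0.79 and called without replicate 4. Tff2, a trefoil peptide that coats mucus, was 1.40 ± 0.23. Krt20, a keratin of gut and duct epithelium, was 1.93 ± 0.61, and among duct markers Sox9 was higher (1.27 ± 0.53) and Krt7 lower (−0.93 ± 0.34), with 7 higher and 3 lower of 18.

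The Reg proteins are secreted lectins that exocrine pancreas makes in injury and inflammation. Reg3d (1.53 ± 0.72) and Reg1 (1.27 ± 0.45) were higher in all 6 mice. Reg3a split the mice, at 2.51, 2.93, 2.74 and 1.70 in replicates 1, 2, 4 and 6 and at −3.45 and −3.08 in replicates 3 and 5. Reg3b had the same 2 mice at −3.08 and −3.56 and the other 4 between 0.74 and 2.97. Both genes thus lay above the pool in 4 mice and far below it in 2, and their means (0.56 and 0.20) were not called (adjusted p = 0.64 and 0.86, limma, n = 6). Replicates 1 and 2 shared a slide and 3 to 6 another, so both low mice lay on the slide that also held replicates 4 and 6.

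Peptide hormone and secretion genes are given beside the beta cell markers, whose median was −0.76. Pdyn, the precursor of dynorphin opioid peptides, was the lowest gene but one of all tested, from −3.30 to −1.95 with a median of −2.80 (−2.67 ± 0.47, adjusted p = 2.4e-05, limma, n = 6). All 6 mice lay below the pool and none came near it. Penk, the enkephalin precursor, was higher (1.34 ± 0.63), as were Gast, gastrin (1.33 ± 0.26), and Igf1 (1.02 ± 0.29), while Npy (−0.86 ± 0.28) and the urocortin Ucn3 (−0.59 ± 0.22), a maturity marker of beta cells, were lower. Of 30 peptide precursors 11 were higher and 7 lower (8 and 11 with median centring), so the group had no single direction. The hormones Gcg, Ppy and Pyy were not called, and Ppy spanned −2.43 (replicate 3) to 0.70 (replicate 5, without which it was called at −1.18), while Sst was lower (−0.83 ± 0.31).

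Among 27 receptors for hormones and nutrients 4 were higher and 10 lower. Ptger3, a prostaglandin E2 receptor, ranged from 1.26 to 2.14 with a median of 1.56. Adra2a, the adrenergic receptor that restrains insulin release, ranged from −1.55 to −1.10 with a median of −1.19. Crhr1 (−1.04 ± 0.16), Prlr, the prolactin receptor (−0.93 ± 0.37), and Glp1r (−0.36 ± 0.10) were lower, and Ffar1, a fatty acid receptor, was not called (−0.05 ± 0.10, adjusted p = 0.45).

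Of 49 genes of vesicle fusion 23 were lower and 9 higher (median −0.17), with array medians from −0.21 to −0.10. Vamp2, the granule SNARE, ranged from −1.46 to −1.15 with a median of −1.24 (−1.29 ± 0.13, adjusted p = 1.3e-05, limma, n = 6). The clamp Cplx2 was −0.98 ± 0.38, and the synaptotagmins Syt13 and Syt7 −1.11 ± 0.33 and −0.84 ± 0.24. Stx1a, the target SNARE, was lower by less (−0.23 ± 0.09). Voltage-gated calcium channels had 8 of 15 lower and 3 higher, with the islet channel Cacna1d at −0.92 ± 0.11, Cacnb3 at −0.80 ± 0.21 and Cacna2d2 higher at 0.87 ± 0.21. Potassium channels were split (14 higher, 18 lower of 54), with the epithelial channels Kcnk6 (1.14 ± 0.49) and Kcnq1 (0.98 ± 0.36) higher. Kinesins had 13 of 25 lower and none higher, among them Kif12 (−1.04 ± 0.26) and the neuronal motor Kif1a (−0.66 ± 0.23), and tubulins 10 of 20 lower and 3 higher.

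**Figure D2:**
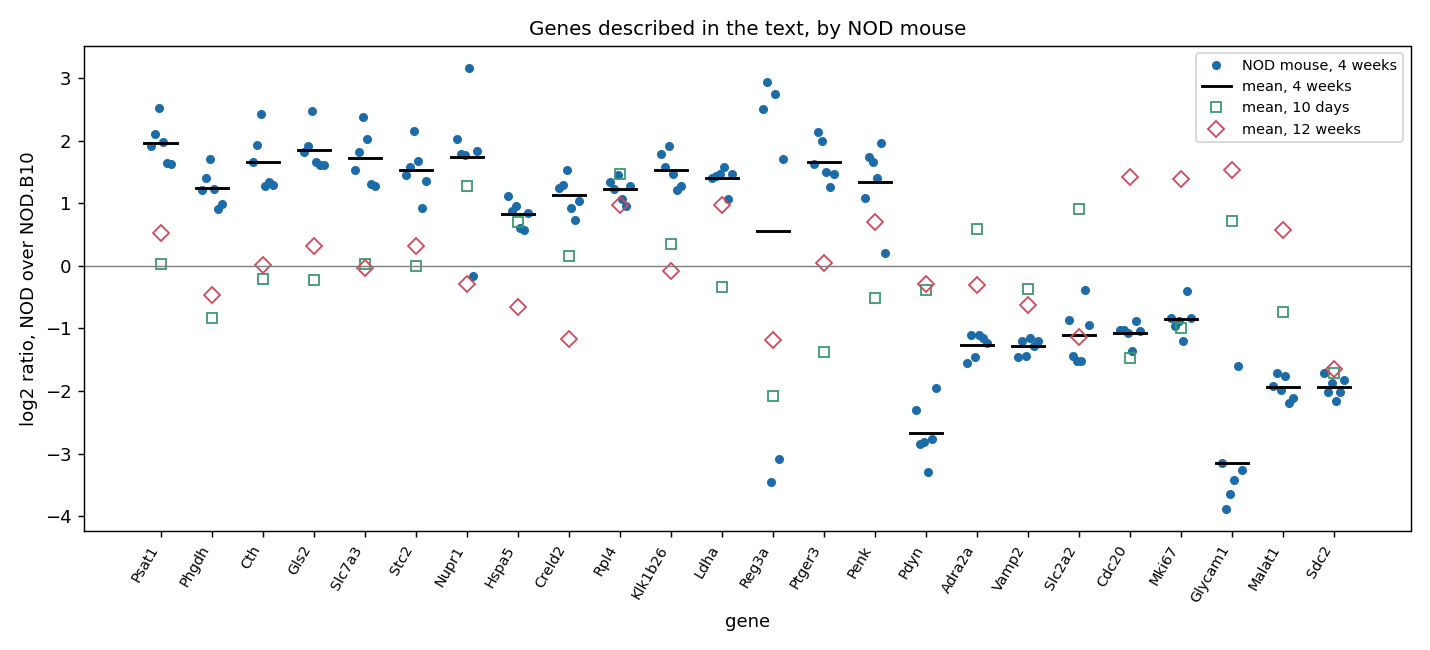
Log2 ratio of NOD over NOD.B10 (vertical axis) of 24 genes described in the text (horizontal axis) in each of the 6 NOD mice at 4 weeks (filled points), with the mean over the mice (line) and the means at 10 days and 12 weeks (open marks). Psat1 and Vamp2 keep their 6 mice together, while Reg3a has 4 mice between 1.70 and 2.93 and 2 at −3.08 and −3.45.

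Genes of cell division were lower. Of 34 mitosis genes 27 were lower and 1 higher (median −0.36), and of 38 DNA replication genes 20 were lower and 3 higher (median −0.26). Cdc20, the activator of the anaphase-promoting complex, ranged from −1.36 to −0.89 with a median of −1.04 (−1.07 ± 0.16, adjusted p = 2.5e-05, limma, n = 6). The mitotic kinesin Kif20a (−1.02 ± 0.37), the centromere motor Cenpe (−0.98 ± 0.26), the proliferation marker Mki67 (−0.85 ± 0.27) and the origin subunit Orc6 (−0.99 ± 0.24) were lower in all 6 mice, and the 1 higher mitosis gene was Bub1 (0.57), a checkpoint kinase whose probes were called in opposite directions. Among brakes of the cycle Cdkn1a, the inhibitor p21, was higher (0.84 ± 0.41), Cdkn2c was lower (−0.80 ± 0.21), and Ccnd2, a cyclin of beta cell growth, was lower (−0.37 ± 0.18). The cell cycle homology region, TTTGAA, occurred in 20.2% of all promoters and in 19 of 27 promoters of mitosis genes (70.4%). Mitosis genes with a match had a median of −0.36, and those whose promoters lacked one −0.34. The promoter of Cdc20, at chr4:118437344-118437421 (minus, GRCm38.p6), is shown as that of the lowest mitosis gene, with the element in capitals.
Cdc20: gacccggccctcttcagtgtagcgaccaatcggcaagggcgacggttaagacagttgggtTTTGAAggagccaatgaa

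At 12 weeks the same group pointed the other way, with 30 of 34 mitosis genes higher (23.2% of all genes were higher at that age, and 18.4% lower). The difference between 4 and 12 weeks was called for 32 of the 34, all of them lower at 4 weeks, where 26.5% of all genes were lower in that comparison. Cdc20 stood at 1.42 at 12 weeks and Mki67 at 1.38. At 10 days 30 of the 34 were lower (26% of all genes), and the difference between 4 weeks and 10 days was called for 8 of them. Lymphocyte markers were also higher at 12 weeks, 15 of 16 for T and NK cells and 11 of 12 for B and plasma cells, against 4 and 0 at 4 weeks, and their part in the mitosis values was not tested.

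Fuel metabolism held opposite changes within single pathways. In glycolysis 9 of 35 genes were higher and 13 lower. The median of the gene means was 0.04, array medians ran from −0.08 to 0, and median centring gave −0.23. Ldha, lactate dehydrogenase, which mature beta cells keep low, ranged from 1.07 to 1.57 with a median of 1.45 (1.40 ± 0.17, adjusted p = 1.5e-05, limma, n = 6). Slc16a1, a lactate and pyruvate carrier that beta cells also keep low, was 0.57 ± 0.29 (0.25 and not called with median centring), and Hk2, the high-affinity hexokinase, 1.13 ± 0.62. Slc2a2, the glucose transporter of mouse beta cells, was lower, from −1.52 to −0.38 (median −1.20). Hk2 was at 0 in replicate 5, and the other 3 genes kept their direction in all 6 mice.

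In the citric acid cycle 19 of 36 genes were higher and 10 lower, with the succinate ligase subunit Suclg2 at 1.34 ± 0.30, and in respiratory complex I 21 of 45 were higher and 7 lower. Both medians (0.17 and 0.13) turned with median centring (−0.12 and −0.18), which gave 3 higher and 12 lower in the first and 2 and 11 in the second. Cholesterol synthesis had 15 of 27 genes lower and 4 higher. The regulator Srebf2 was among the lower genes (−0.85 ± 0.32), while Hmgcs1 was not called (−0.14 ± 0.32). Fatty acid synthesis had 11 of 24 lower and 3 higher, with the glucose-responsive factor Mlxipl at −0.93 ± 0.12. Of 35 antioxidant genes 12 were higher and 6 lower (5 and 17 with median centring). Prdx4, the peroxiredoxin of the ER, was 1.32 ± 0.22, and Gpx2, a glutathione peroxidase, was −1.22 ± 0.20.

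The lowest gene of all tested was Glycam1, which encodes a secreted mucin that binds L-selectin and is made by high endothelial venules, the vessels through which lymphocytes enter lymph nodes. Glycam1 ranged from −3.88 to −1.60 with a median of −3.34 (−3.16 ± 0.81, adjusted p = 6.2e-05, limma, n = 6), and replicate 5 stood apart from the other 5 mice, which lay at −3.15 or below. Ccl21a, the chemokine of the same vessels and of lymphoid stroma, was −1.44 ± 0.29, whereas Chst2, a sulfotransferase of selectin ligands, was higher (1.10 ± 0.55). The list as a whole had 2 higher and 4 lower of 16. Madcam1, the gut addressin, was not called (0.02 ± 0.09) and was well above background in NOD on 2 arrays. At 12 weeks Glycam1 was 1.53 and higher, a difference of −4.69 between the ages (adjusted p = 7e-05, limma).

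Interferon response genes, which cells switch on when they sense virus or lymphocyte cytokines, varied widely between mice. The array medians of 29 type I interferon response genes were 0.70, 2.07 and 0.62 in replicates 2, 4 and 6, and −0.25, −0.49 and −0.48 in replicates 1, 3 and 5. The interferon-gamma list had the same 3 mice at 0.98, 1.72 and 0.86 and the other 3 between −0.50 and −0.08. Rsad2, an antiviral enzyme, ran from −2.73 (replicate 5) to 4.25 (replicate 4) with a median of 0.97, and Gbp2, a guanylate binding protein, from −0.68 (replicate 5) to 3.64 (replicate 4). With this spread 1 type I gene was called higher and 1 lower, and 4 and 1 of 27 interferon-gamma genes (2 and 4 with median centring). Bst2, an antiviral membrane tether, was higher in all 6 mice (0.99 ± 0.42), as were the immunoproteasome subunits Psmb9 (0.87 ± 0.35) and Psmb10 (0.80 ± 0.26). Replicates 2, 4 and 6 came from both slides.

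**Figure D3:**
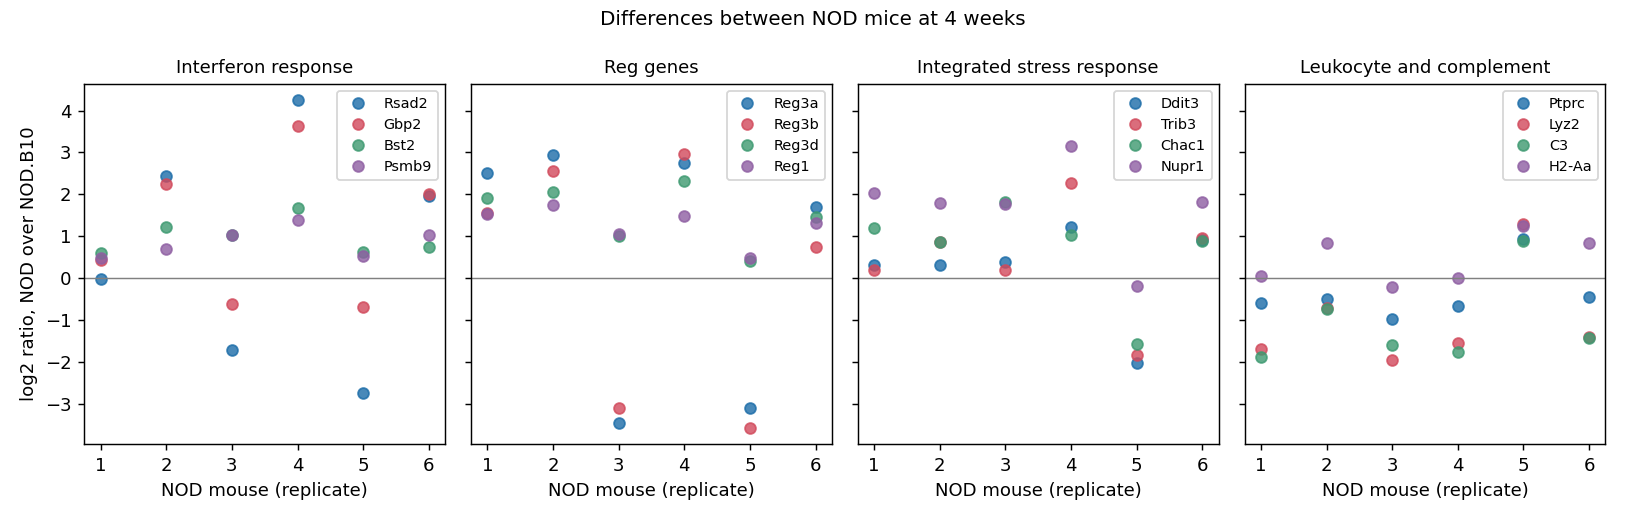
Log2 ratio of NOD over NOD.B10 (vertical axis) in the 6 NOD mice at 4 weeks (horizontal axis, by replicate number) for interferon, Reg, stress, leukocyte and complement genes (panels, a colour per gene). Rsad2 is highest in replicate 4 at 4.25, Reg3a and Reg3b lie between −3.56 and −3.08 in replicates 3 and 5, and Ddit3 and Trib3 are lowest in replicate 5.

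White cell marker counts are given by list. Of 16 T and NK markers 4 were higher (25%, beside 24.8% of all genes) and 1 lower, with a median of 0.01. Of 12 B and plasma cell markers none was higher and 1 lower. Of 19 macrophage and dendritic markers 2 were higher and 1 lower (none and 5 with median centring). Of 17 neutrophil and mast cell markers only 4 were measured, 3 of them higher, by less than 2-fold, and none lower, with array medians from 0.10 to 0.28. Cd6, a T cell adhesion receptor, was the one 2-fold gene among them (1.36 ± 0.40). Replicate 5 differed from the rest, with an array median of 0.96 for B cell markers where the others lay between −0.28 and −0.18. In that mouse Ptprc, the leukocyte protein CD45, was 0.95 and Lyz2, a macrophage lysozyme, 1.29, against values from −0.97 to −0.45 and from −1.95 to −0.71 in the other 5. Without replicate 5 both genes were called lower, at −0.63 and −1.45. C3, the central complement protein, followed it, at 0.88 in replicate 5 and between −1.88 and −0.73 elsewhere (−1.09 ± 1.04, adjusted p = 0.025, limma, n = 6), and its call was lost without any 1 of replicates 1, 3, 4 and 6. C2 was higher in all 6 mice (1.10 ± 0.38). Chemokine receptors had 7 of 14 higher and none lower, with Ccr3 (1.44 ± 0.36) and Ccr4 (1.17 ± 0.50) in front.

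Genes named H2, which encode the antigen-presenting molecules that differ between the strains by descent, had 13 of 23 lower and 2 higher (median −0.42). H2-T22 ranged from −2.03 to −1.22 with a median of −1.69. H2-K1 (−1.14 ± 0.49), H2-Q4 (−1.10 ± 0.34) and H2-DMb1 (−1.35 ± 0.25) were lower too, the last with NOD signal well above background on 1 of 6 arrays. How well these probes match the alleles of either strain was not tested. The class II genes H2-Aa (0.46 ± 0.59) and H2-Ab1 (0.32 ± 0.66) were not called at 4 weeks and were 2.47 and 2.96 at 12 weeks.

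Of the 833 genes on chromosome 17, 2.76% were lower by 2-fold, where that share on the other autosomes and X lay between 0.413% and 1.5%. In either direction the share was 5.04%, near the 4.59% of chromosome 7. The window from 30 to 40 Mb (mm9), which holds H2, had 7 higher and 12 lower of 220 genes (8.64%), and the window before it 6.22% of 209. In the same region D17H6S56E-5 (chr17:35134128-35134187, mm9) ranged from −2.42 to −1.92 with a median of −2.09, and Zfp871, a zinc finger gene, from −1.82 to −1.31. Zfand3, which lies there too, was −1.35 ± 0.15, and Sik1, a salt-inducible kinase, higher at 1.02 ± 0.14. Glo1, glyoxalase, gave 1.09 ± 0.09 on its brightest probe, with another probe called in the opposite direction. Of the 3 probes of Zfp871 only the brightest was called, their median being −0.11. The other gene groups of this text were formed by name and not by position, so members that lie in the window from 30 to 40 Mb stayed in them. How well their probes match either strain was not tested.

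Few genes kept a 2-fold change at all 3 ages. They were D17H6S56E-5, Zfand3 and Zfp871 on chromosome 17, Sdc2 on chromosome 15, Fosb on chromosome 7, and the array's unnamed transcript NAP058332-1 on chromosome 13. Sdc2, a heparan sulfate proteoglycan of the cell surface, stood at −1.71, −1.93 and −1.64 from the youngest age to the oldest, and Zfand3 at −1.29, −1.35 and −1.29. Both had SDs of at most 0.23 at each age. Of all genes, 8.24% were called with the same sign at all 3 ages in the fit of all 18 arrays. The share was 10.2% on chromosome 17 and 9.55% in its window from 30 to 40 Mb, near that of all genes. NOD was in the red channel on every array, so a constant dye effect and a constant strain difference cannot be told apart in genes that kept their sign.

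**Figure D4:**
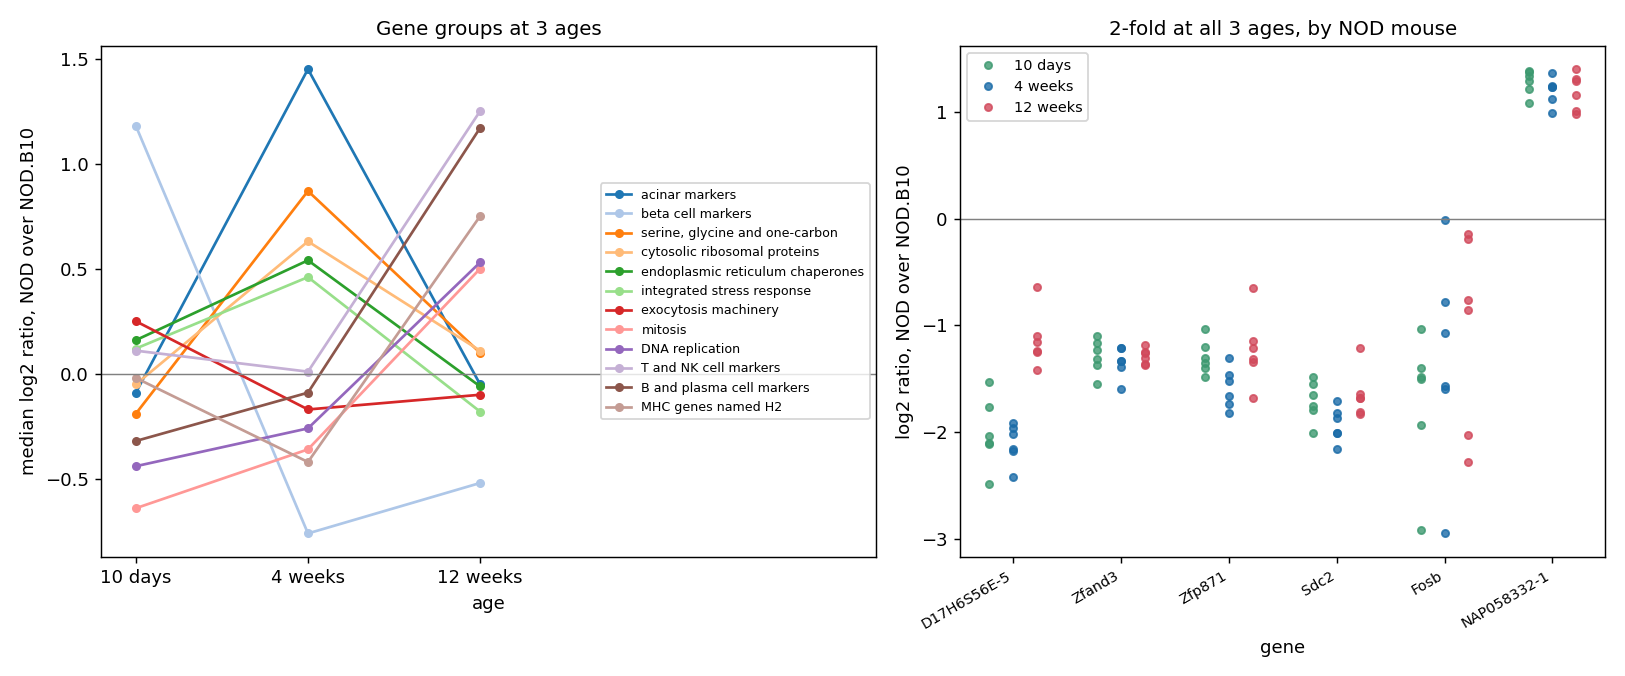
Left, median log2 ratio of NOD over NOD.B10 (vertical axis) of 12 gene groups at 10 days, 4 weeks and 12 weeks (horizontal axis), each age against its own pool. Right, the 6 mice of each age (points) for genes with a 2-fold change of one sign at all 3 ages. The serine group goes from −0.19 to 0.87 and 0.10, the mitosis group from −0.64 and −0.36 to 0.50, and Zfand3 holds at −1.29, −1.35 and −1.29.

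Immediate early genes, which respond to handling and signals within minutes, had 12 of 24 lower and 4 higher (median −0.29). Fosb (−1.33 ± 0.99), Nr4a1 (−1.22 ± 0.62), Egr1 (−1.15 ± 0.77) and Fos (−1.07 ± 1.15) were lower, each lowest in replicate 4 (Fos −3.23, Egr1 −2.59), and the call of Fos was lost without replicate 1, 2 or 6 and with processed signals (−1.09). The list was lower at 10 days as well (21 of 24, median −0.81). Heat shock genes had 7 of 20 higher and 3 lower (2 and 7 with median centring), with Dnajb1 (−1.60 ± 0.78), Hspa1a (−1.06 ± 0.53) and Hspa1b (−0.96 ± 0.45) lower in all 6 mice. At 10 days these 3 were 1.14, 1.80 and 1.49 and called higher, and the difference was −2.74 for Dnajb1 and −2.86 for Hspa1a. Times of dissection are not given in the sources used here. The clock gene Per1 was −0.96 ± 0.26, while Arntl (0.08) and Dbp (−0.11) were not called.

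Genes of RNA processing and transcription control were lower by small amounts. Splicing factors and heterogeneous nuclear ribonucleoproteins had 23 of 42 lower and 5 higher (median −0.20), with Hnrnpl at −0.74 ± 0.20, Srek1 at −0.71 ± 0.11 and Srsf5 higher at 0.70 ± 0.22 (0.34 and not called with median centring). C2H2 zinc finger proteins had 109 of 299 lower and 30 higher (36.5% lower beside 28.2% for all genes), all but 1 of the lower ones by less than 2-fold. Malat1, a nuclear long noncoding RNA, ranged from −2.19 to −1.71 with a median of −1.95. Meltf, melanotransferrin, was −1.94 ± 0.26, and Ttc28 −1.67 ± 0.25. Among the highest genes beside acinar enzymes such as Pnliprp1 (2.05 ± 0.24) and Amy2a5 (1.82 ± 0.19) were Slc25a22, a mitochondrial glutamate carrier (2.01 ± 0.31), and Gprc5d (1.89 ± 0.38), a receptor of plasma cells and hair follicles. Of 20 endothelial markers 7 were lower (35%, beside 28.2% of all genes) and 1 higher, with array medians from −0.35 to 0.23. The growth factor receptor Flt1 lay between −1.26 and −0.84, and Pecam1 was not called (0.18 ± 0.21).

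Serine pathway genes differed from both other ages. The difference from 10 days was called for 22 of 25 serine pathway genes, 17 of them higher at 4 weeks, where 55.6% of all genes were called and 26% were higher. The difference from 12 weeks was called for 18, 15 of them higher, against 47.2% and 20.7% of all genes. Phgdh was −0.83 at 10 days and −0.47 at 12 weeks, a difference of 2.07 (adjusted p = 3.7e-05, limma) and of 1.71 (adjusted p = 0.00045, limma). Ribosomal proteins differed in the same direction, 77 of 86 being higher at 4 weeks than at 10 days and 64 than at 12 weeks. So did 24 of 27 acinar markers in both comparisons, and the part of acinar content in these differences was not tested. The 18 arrays share 1 estimate of the spread, and each comparison uses its own pools.

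Stress and secretory genes were also set beside both other ages. Of all genes 26% were higher and 29.6% lower at 4 weeks than at 10 days. Against 12 weeks these shares were 20.7% and 26.5%. Of 21 integrated stress response genes 16 were higher at 4 weeks than at 12 weeks. Against 10 days 6 were higher, which is near the share of all genes, and none was lower in either comparison. ER chaperones had 11 of 27 higher and 6 lower than at 10 days, and 15 higher and 2 lower than at 12 weeks, with Creld2 at −1.17 at the later age (difference 2.30, adjusted p = 9.3e-09, limma) and Hspa5 at −0.66 (difference 1.49, adjusted p = 8.1e-06, limma). The exocytosis genes had 28 of 49 lower at 4 weeks than at 10 days (29.6% of all genes), when 26 were higher (29.9% of all genes). Against 12 weeks 15 were lower and 8 higher, near the shares of all genes. All 22 beta cell markers were lower than at 10 days. At 10 days and 12 weeks 55.9% and 41.6% of all genes were called.

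Olfactory receptors, which sense odours in the nose, make up a large family of dim probes and were taken as a negative control. They had 99 of 161 measured members higher and 3 lower (median 0.22), against 24.8% and 28.2% of all genes. The higher share of 61.5% was about as large as that of ER chaperones (63%), proteasome subunits (61.2%) and translation factors (60.3%). Glutathione S-transferases (64.7%), glutamine and proline genes (63.2%), kallikreins (62.5%) and polyamine genes (61.5%) were near it too. Amino acid transporters (58.6%), translocation into the ER (56.5%) and ER-associated degradation (54.5%) were below it. Serine pathway genes (68%), tRNA synthetases (80%) and cytosolic ribosomal proteins (90.7%) were above it. Their array medians were above 0 on all 6 arrays. Among the 109 receptors well above background in both channels 72 were higher, and Olfr1036 (1.66 ± 0.14) and Olfr531 (1.59 ± 0.32) exceeded 2-fold. Median centring gave 89 higher and 5 lower. Genes that entered through the NOD channel alone had 251 of 517 higher and none lower, and those through the pool channel alone 226 of 754 lower and none higher, as the filter makes them, so no count over those classes is a result.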

How the data were processed

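RNA of collagenase-isolated islets was labelled from 300 ng per channel, per the labels' protocols, and hybridised to 2-colour Agilent whole mouse genome arrays. The deposited scanner files hold each spot's intensity and background in both channels, per the file headers from Feature Extraction 10.7.3.1 with mm9 probe positions. The authors' deposited value table holds log2 ratios, which equalled log2 of the scanner's processed red over green for 40929 probes within 3.1e-06, which settles scale and direction, and its arrays were not centred (medians from −0.26 to 0.15). It served as an alternative.

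From the scanner files, mean minus median background was corrected with normexp (offset 50), and ratios were normalised within arrays by loess in limma 3.58.1 (R 4.3.3), with control and outlier spots at weight 0 and outlier spots left out. Spots of a probe were averaged. Of 41174 probes, 24179 were well above background in either channel on at least 3 of the 6 arrays. The brightest probe stood for each of 16969 genes, named through RefSeq by accession (13316), symbol (817) or synonym (133) or else by the array's name (2703), and 301 genes had probes called in opposite directions. The offset makes a log2 ratio smaller than the change. In data simulated for the 6-array comparison, with 16969 genes and 200 changed, 53.7%, 97% and 98.5% of log2 changes of 0.5, 1 and 2 were called, with median estimates of 0.33, 0.78 and 1.49. The simulated log2 noise had an SD of 0.25 and was independent between genes and arrays, and far fewer genes changed than were called here. These shares do not cover genes that spread more widely between mice or shifts that many genes of an array share.

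The mean of the 6 ratios was tested against 0 with limma's moderated test, and ages were compared in 1 fit of 18 arrays. No 2 arrays held identical values. The alternatives were a normexp offset of 16, processed signals, the deposited table, median centring, scaling between arrays, other filters and probe rules, array weights, the slide, the replicate number as a block, and each array left out. The slide alternatives and the loss of replicates 4 and 5 were chosen after seeing the data. Where a mean without 1 mouse is given, that mouse had the highest or lowest value, so a call gained that way follows in part from the choice. The members and gene lists were chosen with earlier results of these data known. Genes were named by a rule: the 10 highest and 10 lowest called genes with one sign on all arrays, up to 4 such called and 2 uncalled members of each list, the lists' anchors, and the 6 largest genes of the H2 region called at all ages. The other serine pathway genes, Nupr1, Fgf21, Rps4l, Rps4x, Rps29, Bub1, NAP058332-1 and the other ER stress element genes were chosen after their values were seen. The labels do not say more on the mice than that each array holds 1, so p-values measure the spread between these mice only. No sequence is shown for genes without an entry in the RefSeq promoter table.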

Additional observations from a re-analysis of the deposited data

Results flagged for a closer look

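Among 191 genes and 59 gene groups, 14 genes and 4 groups had 1 mouse apart from the other 5 at 4 weeks by Dixon's ratio, and chance gives about 1 in 20. Replicate 5 was that mouse for Chac1 (−1.57), Ddit3 (−2.02), Glycam1 (−1.60), H2-DMb1 (−0.88), Kif1a (−0.23), Ldha (1.07) and Ptprc (0.95). It was also apart in the group medians of high endothelial venule genes (0.12), B and plasma cell markers (0.96) and splicing factors (−0.02). Its acinar marker median was the lowest of the 6 and its beta cell marker median the nearest to 0, and their part in these values was not tested. Replicate 3, with the highest acinar median, stood apart for Gls2 (2.47), Ins1 (−2.31), Kars (0.85), Rps4l (−1.37), Srp68 (1.06) and the median of olfactory receptors (0.43). Replicate 4 did so for Mat2a (−0.05) and Sec62 (0.28).

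Genes of the text that were called in opposite directions at 4 weeks and another age, with a called difference of at least 2 (log2), are given by that difference. Against 10 days, the amino acid genes Gatm (2.57), Gamt (2.00), Phgdh (2.07), Sardh (2.14), Slc1a5 (2.14) and Slc6a9 (2.60) were higher at 4 weeks. So were the acinar factors Nr5a2 (2.34) and Rbpjl (2.65), the duct genes Sox9 (2.06) and Krt20 (2.59), and Reg3d (2.41), Sel1l (2.35) and Ptger3 (3.04). Lower at 4 weeks than at 10 days were the islet genes Ins1 (−2.73), Sst (−2.74), Slc2a2 (−2.02), Mlxipl (−2.77), Syt13 (−2.89) and Kif12 (−2.10), and the heat shock genes Dnajb1 (−2.74), Hspa1a (−2.86) and Hspa1b (−2.45).

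Against 12 weeks, the dividing cell genes Cdc20 (−2.49), Cenpe (−2.56), Kif20a (−2.09) and Mki67 (−2.23) were lower at 4 weeks. Glycam1 (−4.69), H2-DMb1 (−2.10), Meltf (−2.20), Hspa1a (−2.56) and Hspa1b (−2.41) were lower too, and Creld2 (2.30) and Reg1 (2.15) were higher.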

How the results depend on the processing

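Of 400 named genes 272 were called, and 213 of these kept direction and call under every alternative run. Median centring moved the median of all genes to −0.18, gave 805 genes called by 2-fold (136 higher) in place of 505, cut the higher share of calls from 46.7% to 20.7%, and raised the genes that differed between 4 and 12 weeks from 8007 to 12055, while 8647 genes were called in place of 8993. Of 59 gene groups 25 stayed close, 28 had a median that moved by more than its spread between arrays and 6 turned sign. With the processed signals 2012 genes were called by 2-fold and 2011 with the authors' deposited values, and 22 group medians moved and 1 turned with either. Slide B alone (replicates 3 to 6) gave 4713 called genes against 8993. Within the slide shared with 10 days 5108 genes differed between the ages against 9442, and 9431 of those 9442 kept their sign. That slide held 2 arrays of each age, which are also among the 18 that gave the 9442 genes, so the signs are not independent. The forward strand alone held the ATF4 site in 5 promoters.

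Leaving out 1 array gave 7147 to 9012 called genes and 411 to 605 by 2-fold, 8757 to 9403 that differed from 10 days and 7142 to 8235 that differed from 12 weeks. Replicate numbers were not taken to pair the samples: same-numbered arrays correlated at −0.15 to 0.62 with 10 days, over 0.1 in 3 of 6 pairs, where the same number was also the best match, and at −0.23 to 0.27 with 12 weeks, over 0.1 in 2 of 6, none the best match. With the replicate block 9297 and 7770 genes differed. With the slide as a random block 12994 genes were called at a correlation of −0.26.

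Medians that changed sign with median centring were those of mitochondrial ribosomal proteins (−0.19), proteasome (−0.10), ER-associated degradation (−0.07), glycolysis (−0.23), citric acid cycle (−0.12) and complex I (−0.18). Glycolysis also gave −0.02 with processed signals or the deposited table and −0.03 on slide A alone, and from −0.04 to 0.07 with 1 array left out. With the median of probes Canx was 0.33 and H2-Aa −0.39. Median centring also ended the calls of Atf4 (0.18), Xbp1 (0.24), Odc1 (0.23), Srp68 (0.32), Sec62 (0.26), Slc16a1 (0.25), Srsf5 (0.34), Cbs (0.36), Fgf21 (0.75) and Hsp90b1 (0.36), and processed signals those of Fgf21 (1.2), Hsp90b1 (0.22), Calr (−0.14) and Fos (−1.09). The cause of these changes was not tested. Probes near background and 1 control pool limit what 6 arrays can show.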
